A study of Mus musculus with 12 samples.

Results

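The enzymes described here write, copy and remove DNA methylation in mouse regulatory T cells (Treg), the CD4+ T cells that express Foxp3 and restrain immune responses. They were chosen by name as 7 genes of 36222 in the expression table: Tet1, Tet2 and Tet3, Dnmt1, Dnmt3a and Dnmt3b, and Uhrf1. Each symbol matched 1 gene identifier, and all 7 passed the filter on low values. The question was how far their transcript levels depend on Ikaros, the zinc finger transcription factor encoded by Ikzf1, and on activation through the T cell receptor and CD28. RNA was sequenced from YFP+ splenic Treg sorted out of the CD4+ T cells of individual mice, with 3 libraries in each of 4 groups. Wild-type (WT) mice carried Foxp3-YFP-Cre alone, and Ikzf1 conditional knockout (cKO) mice carried it together with a floxed Ikzf1 allele, so the Cre driver was common to all 4 groups and deletion was limited to Foxp3-expressing cells. Mice used for the ex vivo comparison were 6 to 8 weeks old. The WT ex vivo and cKO ex vivo groups were lysed without added stimulation, and the WT stimulated and cKO stimulated groups were first held for 4 h on plates coated with antibodies against CD3 and CD28, at 1 ug/ml of each. No group was held in culture without the antibodies. Changes described as those of stimulation therefore cannot be told apart from changes due to the 4 h in culture.

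DNA methyltransferases place a methyl group on cytosine, mostly where it is followed by guanine (CpG). Dnmt1 copies the pattern onto newly made strands during replication, and Uhrf1 binds the half-methylated sites and brings Dnmt1 to them, while Dnmt3a and Dnmt3b methylate sites that carried no mark. Tet1, Tet2 and Tet3 oxidise methylcytosine to hydroxymethylcytosine and beyond, which leads to its loss, and in Treg the TET enzymes are known for keeping the Foxp3 enhancer CNS2 unmethylated and Foxp3 expression stable.

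In genome build mm9 the members lie on 7 chromosomes. Tet1 (ENSMUSG00000047146) spans chr10:62267318-62361866 on the minus strand, Tet2 (ENSMUSG00000040943) chr3:133126643-133207354 on the minus strand and Tet3 (ENSMUSG00000034832) chr6:83312367-83391672 on the minus strand. Dnmt1 (ENSMUSG00000004099) spans chr9:20711650-20757317 on the minus strand, Dnmt3a (ENSMUSG00000020661) chr12:3806007-3914443 on the plus strand and Dnmt3b (ENSMUSG00000027478) chr2:153475186-153513466 on the plus strand. Uhrf1 (ENSMUSG00000001228) lies at chr17:56442744-56462909 on the plus strand. No member shares exon sequence with another gene on its own strand. Exons of Dnmt3a overlap those of the antisense gene Gm10485, from which the strand-specific counting separates it. The exon lengths summed over each gene run from 4259 bp for Uhrf1 to 16642 bp for Dnmt3a, which is why levels are compared between genes only per length, as TPM, the share of a library's transcripts that a gene takes after division by length, scaled to a total of 1000000.

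Promoter sequence is shown for Dnmt1, Dnmt3a and Uhrf1, which fell after stimulation of cKO Treg with no overlap between stimulated and ex vivo libraries, and for Tet2, whose share of the TET transcripts was separate between the groups in all 4 comparisons. Each is the 250 bases before a RefSeq transcript start (build GRCm38.p6), read 5′ to 3′ on the strand of the gene. Where a gene has several starts, the window richest in CpG among those without an annotated exon base was taken. Capitals mark GGGAA, the core that Ikaros recognises, and the E2F forms TTTGGCGC, TTTCCCGC, TTTGCCGC and TTTCGCGC, searched on both strands; the reverse complement of GGGAA lies within TTTCCCGC, so these can share bases.
Dnmt1, chr9:20952980-20953229, minus strand: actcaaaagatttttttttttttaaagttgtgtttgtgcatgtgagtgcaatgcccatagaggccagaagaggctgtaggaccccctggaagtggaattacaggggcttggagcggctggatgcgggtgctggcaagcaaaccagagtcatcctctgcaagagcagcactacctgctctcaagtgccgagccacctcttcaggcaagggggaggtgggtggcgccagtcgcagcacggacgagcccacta
Dnmt3a, chr12:3806730-3806979, plus strand: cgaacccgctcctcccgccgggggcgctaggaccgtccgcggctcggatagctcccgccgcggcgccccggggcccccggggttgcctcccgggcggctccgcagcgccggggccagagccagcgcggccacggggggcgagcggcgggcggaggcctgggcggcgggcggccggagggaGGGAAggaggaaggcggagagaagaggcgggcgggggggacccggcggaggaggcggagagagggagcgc
Uhrf1, chr17:56304063-56304312, plus strand: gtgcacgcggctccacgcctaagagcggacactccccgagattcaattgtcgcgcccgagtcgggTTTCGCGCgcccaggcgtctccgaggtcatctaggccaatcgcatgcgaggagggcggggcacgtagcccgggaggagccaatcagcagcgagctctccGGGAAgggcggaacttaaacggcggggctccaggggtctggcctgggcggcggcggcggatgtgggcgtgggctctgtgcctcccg
Tet2, chr3:133544391-133544640, minus strand: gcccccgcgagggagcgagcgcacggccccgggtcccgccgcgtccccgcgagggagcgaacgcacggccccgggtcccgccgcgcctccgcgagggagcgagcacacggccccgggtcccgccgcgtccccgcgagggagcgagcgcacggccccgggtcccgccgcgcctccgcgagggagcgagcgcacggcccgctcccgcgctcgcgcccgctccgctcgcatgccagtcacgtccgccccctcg

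The Dnmt1 window shown holds 7 CpG and neither motif, but Dnmt1 has 2 other RefSeq starts. The window at 20952624 to 20952873, not shown because 166 of its bases are annotated exon, holds 26 CpG and 1 E2F form, and the window at 20959889 to 20960138 holds 2 CpG and 1 GGGAA core. The other Dnmt3a windows, at 3806910 and 3891494, hold 91 and 16 annotated exon bases, 40 and 15 CpG and 1 and 2 GGGAA cores. The second Uhrf1 window, at 56303087, holds 10 CpG and 3 GGGAA cores. The Dnmt3a window holds 38 CpG and 1 GGGAA core, and the Uhrf1 window holds 30 CpG, 1 GGGAA core and 1 E2F form. The Tet2 window has 51 CpG and neither motif. Across 32851 RefSeq windows of the same length the median is 6 CpG and the 90th percentile 25, GGGAA is present on either strand in 56.2% and any of the 4 E2F forms in 1.86%. These matches describe the letters of the windows and were not tested for binding.

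Reads assigned to genes numbered 11822714 to 20247649 in the ex vivo and 8208659 to 13440658 in the stimulated libraries. The predicted gene Gm10800 alone took 17.7% to 39.8% of the TPM ex vivo and 32.6% to 55.9% after stimulation, a difference whose part in the stimulation results was not tested, so TPM was divided by a scaling factor for each library (0.799 to 1.21) that equalises the bulk of the genes, giving scaled TPM. Ikzf1 itself changed by -1.54 on the log2 scale in cKO ex vivo (SE 0.20, adjusted p = 2.75e-05, limma) and by -1.44 in cKO stimulated libraries (SE 0.20, adjusted p = 5.82e-05, limma) with no overlap between the genotypes in either condition. Without a filter on low genes the ex vivo call was lost (adjusted p = 0.0548, limma; 9.07e-06 to 0.0548 over 19 alternatives). Of the activation genes named for control, Egr2 rose with stimulation by 1.31 in WT (adjusted p = 2.57e-05, limma) and 0.99 in cKO (adjusted p = 0.000335, limma; 0.0678 without a filter), whereas Cd69 fell by 1.53 (adjusted p = 5.33e-05, limma) and fell by 2.03 (adjusted p = 8.94e-07, limma). Egr1 fell by 0.75 in WT (adjusted p = 0.0362, limma) and by 1.01 in cKO (adjusted p = 0.00293, limma), the WT call holding in 8 of 12 fits that each left out 1 library and lost with the 5 TPM filter (0.0964) and TPM as deposited (0.24), over a range of 0.0176 to 0.285 for 19 alternatives. Nr4a1 (-0.72 and -0.16) and Myc (0.44 and 0.32) did not pass. Under the 5 TPM filter Myc was called higher in WT (0.61, adjusted p = 0.0113, limma) and in cKO (0.64, 0.00703), and Nr4a1 was called in WT (-0.55, 0.0307). Myc was also called in WT with TPM as deposited (0.80, 0.00842), and Nr4a1 in WT in 3 of 12 leave-one-out fits. The 9 Treg and T cell markers summed to 1166 to 3164 scaled TPM in every library, against 13.4 to 25.1 for 6 B cell markers, 18.2 to 33.5 for 7 myeloid markers, 9.37 to 15 for 2 CD8 T cell markers, 7.22 to 11.9 for 4 NK cell markers and 4.83 to 12.3 for 4 erythroid markers. None of these markers was at or under 3 reads in all libraries. The Treg and T cell sum was 2428 to 3164 in the ex vivo libraries and 1166 to 1887 after stimulation, and the myeloid sum 18.2 to 23.6 and 25.6 to 33.5. Single markers in the Treg and T cell sum did not all fall. The B cell sum differed by genotype, with 13.4 to 19.4 in WT and 21.4 to 23.5 in cKO ex vivo, then 13.4 to 15.3 and 18 to 25.1 after stimulation. The NK cell sum was 8.31 to 9.53 in WT and 10.5 to 11.9 in cKO after stimulation. The erythroid sum was lower ex vivo than after stimulation, at 5.29 to 7.66 and 8.08 to 11 in WT and 4.83 to 8.92 and 9.42 to 12.3 in cKO. The part of these in the results on the members was not tested. The library WT ex vivo 3 had Xist at 179 TPM, and no other library exceeded 1.36 TPM. The labels give no sex. Without this library the WT stimulation calls of Tet1, Dnmt1 and Uhrf1 were lost, as they also were without WT stimulated 2. The part of sex in these results was not tested. In bulk RNA a smaller number of cells of one type and less RNA per cell cannot be told apart.

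The family is dominated by Tet3, Dnmt1 and Tet2, with Tet1 and Dnmt3b at the bottom of every group. In WT ex vivo Treg, Tet3 averaged 42.8 ± 5.95 scaled TPM (SD, n = 3), Dnmt1 37.7 ± 7.1, Tet2 22.1 ± 4.81, Dnmt3a 16.4 ± 2, Uhrf1 13.1 ± 3.58, Dnmt3b 4.97 ± 0.526 and Tet1 3.84 ± 0.121. Tet3 and Dnmt1 overlapped in their ranges, as did Dnmt3a and Uhrf1, and the other neighbours in this order were separate. In cKO ex vivo Treg the order began with Dnmt1 (42.8 ± 7.34) and Tet3 (39.8 ± 7.23), which overlapped. In WT stimulated Treg, Tet3 (42.8 ± 3.17) stood apart from Tet2 (25.7 ± 0.869), which overlapped with Dnmt1 (24.1 ± 1.74). In cKO stimulated Treg the mean of Tet2 (33.6 ± 8.61) was above that of Tet3 (28.2 ± 5.3); their ranges across libraries overlapped, but Tet2 was the higher of the pair within all 3 libraries.

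Read number gave another order for the methyltransferases. All 12 libraries held more Dnmt3a than Dnmt1 reads, and all 12 had a higher TPM for Dnmt1, whose summed exons measure 5264 bp against 16642 bp for Dnmt3a. Counting error, from reads per gene, was 1.31% to 8.08% and largest for Dnmt3b, with 153 to 293 reads in a library. The level of genes that Treg should not express was read from 1716 olfactory and vomeronasal receptor genes, whose median was 0.556 to 1.13 TPM in the ex vivo and 0.764 to 1.15 TPM in the stimulated libraries. Tet1 lay 2.24 to 6.4 times above that median and Dnmt3b 3.99 to 8.08 times, whereas Tet3 reached 20.1 to 84.9 times. The plot of scaled TPM by library shows all 7 members.

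**Figure D1:**
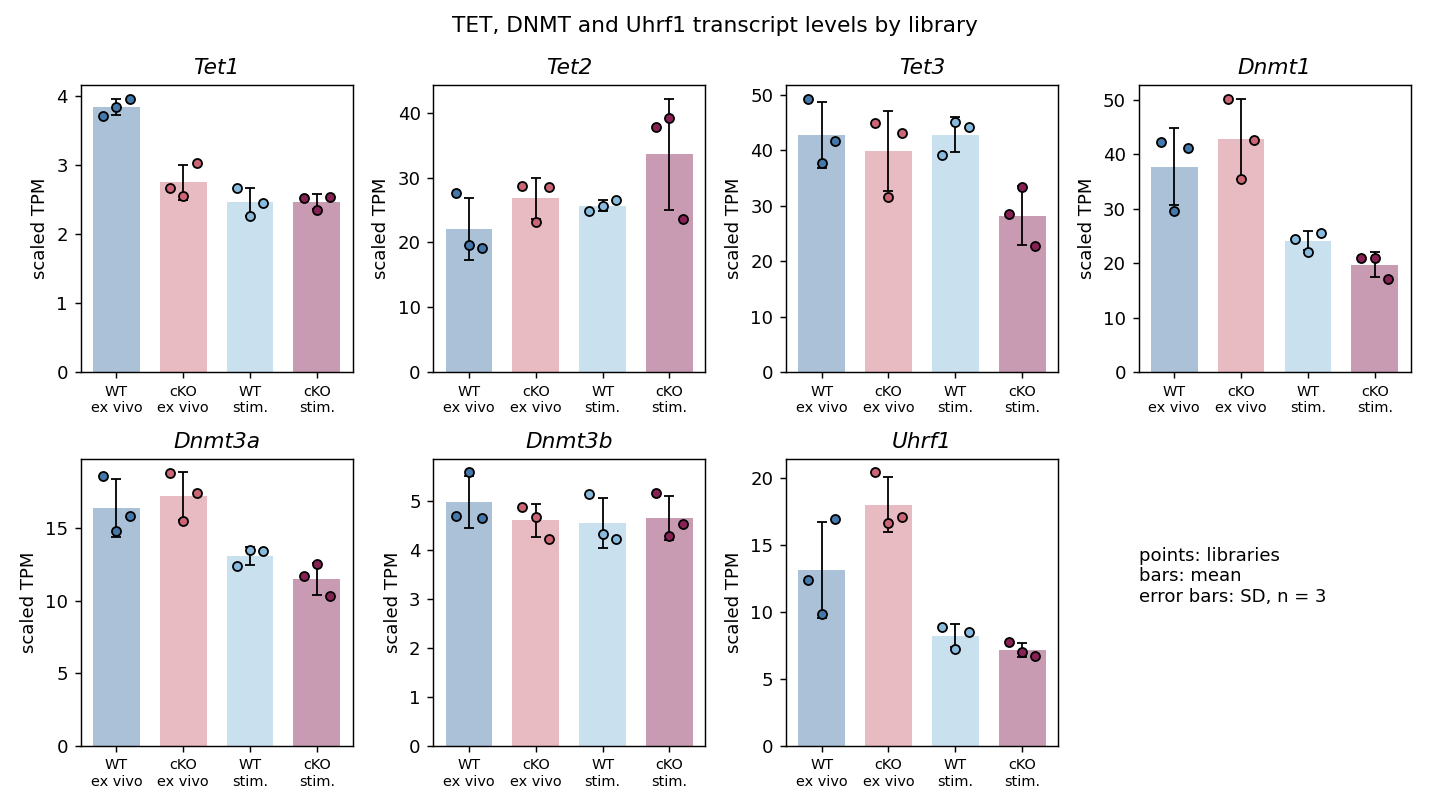
Scaled TPM of the 7 members (vertical axes, starting at 0, scales differ between panels) in the 4 groups; points are libraries, bars the mean and error bars the SD (n = 3). Dnmt1 and Uhrf1 are lower in the 6 stimulated than in the 6 ex vivo libraries, the mean of Tet3 is lowest in the cKO stimulated group, and Dnmt3b stays between 4.22 and 5.58.

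Changes were tested with limma on log2(scaled TPM + 1) across 18111 genes, 2-sided, with Benjamini-Hochberg adjustment over those genes, and a gene was called at an adjusted p under 0.05. Changes on this scale understate those of low genes. No member was called for genotype ex vivo, where 2.48% of all genes were called; 2 of 7, Tet1 and Uhrf1, had an unadjusted p under 0.05, as had 10.6% of all genes. No member was called for genotype after stimulation, with 3.62% of genes called, and 1 of 7, Tet3, had an unadjusted p under 0.05, as had 22.7% of all genes. Stimulation lowered 3 of 7 members in WT, where 21.2% of genes were called in either direction and 15.7% were called lower and 5.53% higher. It lowered 4 of 7 in cKO, where 45.2% were called and 29% were called lower and 16.2% higher. No member was called for the interaction of genotype and stimulation, in which 0.458% of genes were called; 1 of 7, Uhrf1, had an unadjusted p under 0.05, as had 11% of all genes. No member was called higher in any comparison. The pairs of comparisons that share a group are not independent, since the same libraries enter both.

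**Figure D2:**
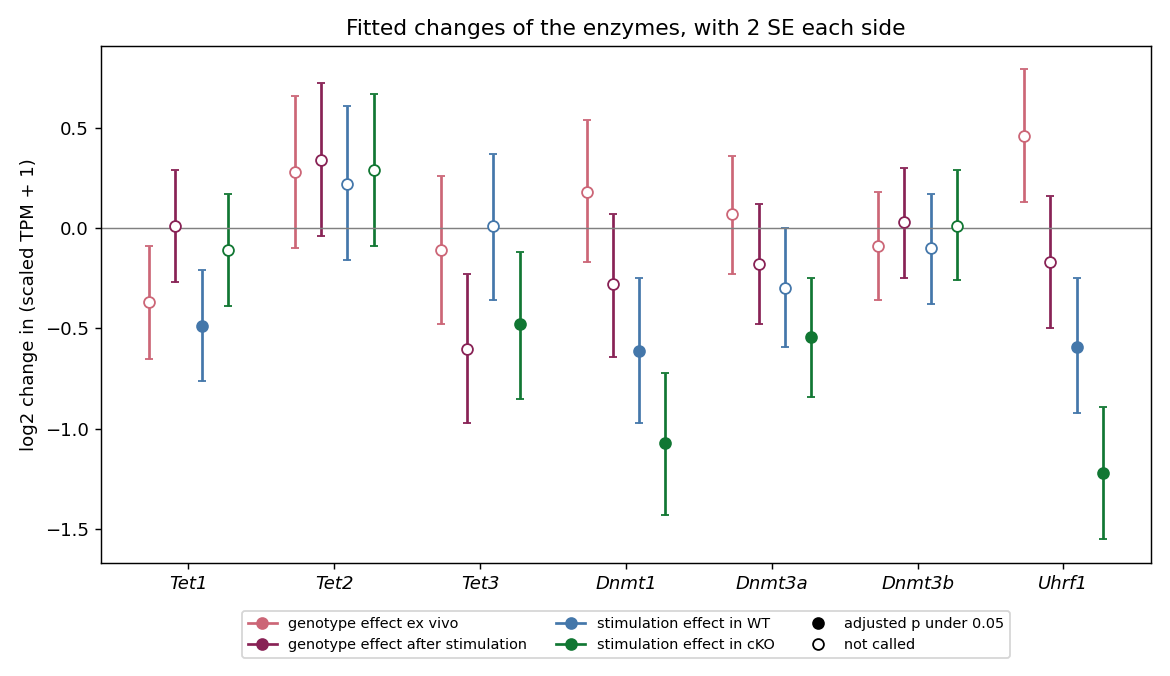
Fitted log2 change of each member in (scaled TPM + 1) for the 4 comparisons, with bars of 2 SE to each side; filled points have an adjusted p under 0.05 (limma). All 7 filled points lie below 0, and the largest decreases are those of Uhrf1 (-1.22) and Dnmt1 (-1.07) in stimulated cKO Treg.

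The maintenance pair, Dnmt1 and Uhrf1, fell with stimulation in both genotypes. Dnmt1 measured 42.3, 29.5 and 41.2 scaled TPM in the WT ex vivo libraries and 24.5, 22.1 and 25.5 in the WT stimulated ones. It measured 50.2, 35.5 and 42.6 in cKO ex vivo and 21, 21 and 17.1 in cKO stimulated libraries. The ex vivo and stimulated values did not overlap in either genotype, and WT ex vivo 2 was the lowest of the ex vivo libraries. Dnmt1 fell by 0.61 on the log2 scale in WT (SE 0.18, adjusted p = 0.0155, limma) and by 1.07 in cKO (SE 0.18, adjusted p = 5.47e-05, limma), a level 0.47 times that ex vivo on the scale with 1 added. The cKO change kept its call whichever of the 12 libraries was omitted, at -0.77 to -1.30 over 19 alternatives. The WT call was lost without WT ex vivo 1 (adjusted p = 0.0866, limma), WT ex vivo 3 (0.0989) or WT stimulated 2 (0.0763).

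Uhrf1 measured 12.4, 9.85 and 16.9 scaled TPM in WT ex vivo libraries and 8.86, 7.24 and 8.49 in WT stimulated ones. In cKO it measured 20.4, 16.6 and 17.1 ex vivo and 7.75, 6.96 and 6.73 after stimulation. All 6 stimulated values were below all 6 ex vivo values, and the gap was wider in cKO. Uhrf1 fell by 0.59 in WT (SE 0.17, adjusted p = 0.0128, limma) and by 1.22 in cKO (SE 0.17, adjusted p = 4.78e-06, limma), to 0.43 times its ex vivo level on the scale with 1 added. The cKO call held without each of the 12 libraries in turn, and the WT call was lost without WT ex vivo 3 (-0.39, adjusted p = 0.156, limma) or WT stimulated 2 (0.0723). The difference between the genotypes in the response of Uhrf1 was -0.64 (SE 0.23) and did not pass (adjusted p = 0.314, limma, range 0.037 to 0.704 over 19 alternatives). The corresponding difference for Dnmt1 was -0.46 (SE 0.25, adjusted p = 0.502, limma), with 2 SE reaching from -0.97 to 0.04, and -0.30 without WT ex vivo 2.

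The WT decreases depended on the scaling of the libraries. With TPM as deposited, which moved the median of all genes tested by 0.29 in this comparison, the changes in WT were -0.25 for Dnmt1 (adjusted p = 0.4, limma), -0.24 for Uhrf1 (0.38) and -0.20 for Tet1 (0.477), and their ranges overlapped. Without a filter the adjusted p was 0.121 for Dnmt1 and 0.11 for Uhrf1. Over all alternatives it ran from 0.00319 to 0.4 for Dnmt1, from 0.00175 to 0.38 for Uhrf1 and from 0.00753 to 0.477 for Tet1. In cKO the same setting moved the median of all genes by 0.01, and Dnmt1 (-1.08) and Uhrf1 (-1.23) differed little from the scaled values.

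Dnmt1 and Uhrf1 are known to peak in S phase with the genes of DNA replication, whose levels are set beside theirs here. The 22 S phase and proliferation genes, a list that holds neither member, summed ex vivo to 301 to 399 scaled TPM in the WT and 380 to 494 in the cKO libraries. After stimulation the sum was 234 to 278 for WT and 180 to 222 for cKO. In WT, 5 of the 22 were called lower with stimulation and none higher, with a median of -0.33 against 0.00 for all genes tested, of which 15.7% were called lower. In cKO, 18 were called lower and none higher, with a median of -0.76 against 0.02, and 29% of all genes were called lower. Among them Mcm3, a subunit of the replicative helicase, fell from 37 ± 6.36 to 17.7 ± 1.77 scaled TPM in WT (SD, n = 3; adjusted p = 0.000212, limma) and from 41.6 ± 6.97 to 14.1 ± 2.81 in cKO (adjusted p = 1.01e-06, limma). Mki67, a marker of cycling cells, fell by 1.82 in cKO (adjusted p = 2.33e-06, limma) and had a change of -0.47 in WT (adjusted p = 0.163, limma). The count in WT was 1 of 22 with TPM as deposited or no filter and 2 to 8 when single libraries were left out, 2 of them without WT ex vivo 3, WT stimulated 1 or WT stimulated 2, 3 without WT ex vivo 1 and 8 without WT ex vivo 2; the count in cKO was 15 to 18 in the leave-one-out fits and 12 of 18 tested genes under a 5 TPM filter. The summed Treg and T cell markers were likewise separate between conditions, at 2428 to 3164 scaled TPM ex vivo and 1166 to 1887 after stimulation. Single markers in this sum did not move together. Ctla4 fell in both genotypes, Foxp3 was called lower in WT and not in cKO, and Tnfrsf18 was called higher in both under the 5 TPM filter. The part of the share of cycling cells or of these markers in the change of Dnmt1 and Uhrf1 was not tested.

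**Figure D3:**
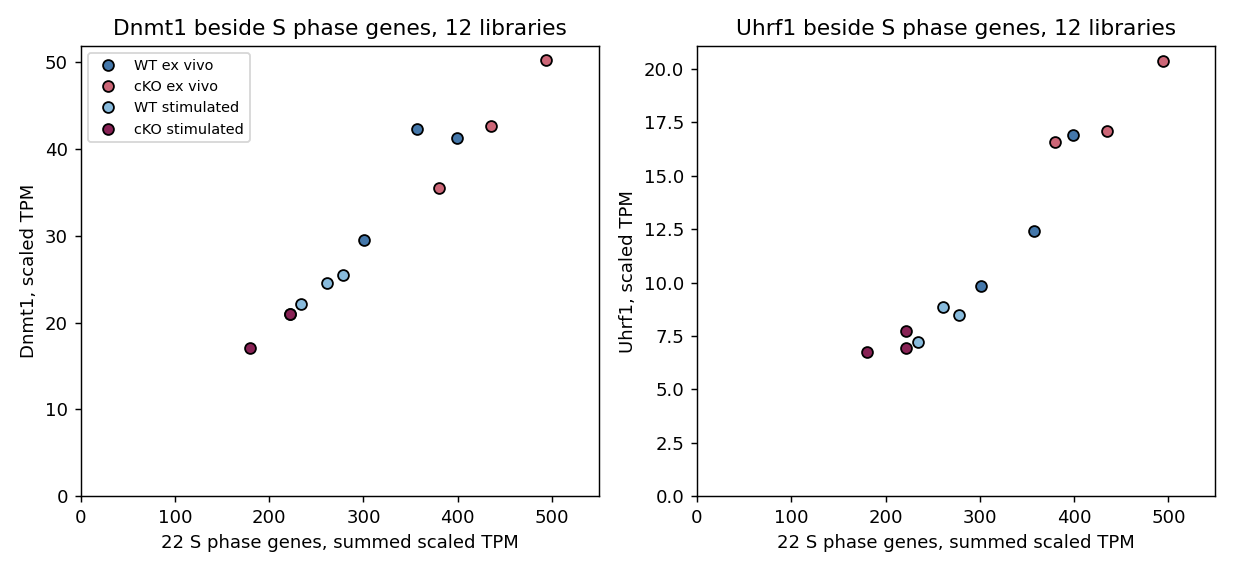
Scaled TPM of Dnmt1 (left) and Uhrf1 (right) on the vertical axes against the summed scaled TPM of 22 S phase genes on the horizontal axes, for 12 libraries coloured by group. The 6 stimulated libraries lie at 180 to 278 on the horizontal axis and the 6 ex vivo libraries at 301 to 494.

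The ratio of Uhrf1 to Dnmt1 TPM within a library does not depend on scaling. Ex vivo it was 0.346 ± 0.0596 (SD, n = 3) for WT and 0.425 ± 0.0375 for cKO; after stimulation it was 0.34 ± 0.0186 and 0.365 ± 0.0315. Of the 4 comparisons, only in that of stimulation in cKO did the ratios not overlap, 0.401 to 0.468 against 0.331 to 0.394, which gives an exact permutation p of 0.1, the smallest that 3 libraries against 3 can reach. That difference of -0.06 was -0.0384 without cKO ex vivo 2. With condition labels permuted within each genotype the exact p was 0.175 (adjusted 0.245 over 14 such tests), and with genotype labels permuted within each condition it was 0.06 (adjusted 0.105).

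Of the de novo enzymes, Dnmt3a fell with stimulation in cKO and Dnmt3b was not called in any comparison. Dnmt3a measured 18.8, 15.5 and 17.4 scaled TPM in cKO ex vivo and 11.7, 12.5 and 10.3 in cKO stimulated libraries. It fell by 0.54 (SE 0.15, adjusted p = 0.00538, limma), and the call was lost only without cKO stimulated 3 (adjusted p = 0.0614) among the 12 leave-one-out fits. The size of this decrease depended on the filter. Under the 5 TPM filter the change was -0.25 (adjusted p = 0.0173, limma), within a range of -0.76 to -0.25 over 19 alternatives. In WT, Dnmt3a measured 18.6, 14.8 and 15.8 ex vivo and 12.4, 13.5 and 13.4 after stimulation. These WT values did not overlap, yet the change of -0.30 (SE 0.15) did not pass (adjusted p = 0.166, limma) and was 0.05 with TPM as deposited (range of adjusted p 0.101 to 0.864). The difference between the genotypes in this response was -0.25, with 2 SE from -0.67 to 0.17 (adjusted p = 0.639, limma), and -0.14 without cKO stimulated 3.

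Ex vivo Dnmt3b measured 4.69, 5.58 and 4.64 scaled TPM for WT and 4.88, 4.67 and 4.23 for cKO. Stimulated, it measured 5.13, 4.32 and 4.22 for WT and 5.16, 4.28 and 4.52 for cKO. All 4 groups overlapped. Its fitted changes ran from -0.10 to 0.03 in the genotype and stimulation comparisons, each with an SE of 0.14, so that 2 SE to either side spans -0.38 to 0.30. A p that misses the threshold does not show that the levels are equal.

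Among the DNMT transcripts the weight of Dnmt1 was lower after stimulation. It made up 64.4%, 59.2% and 66.8% of the summed DNMT TPM in WT ex vivo libraries and 58.3%, 55.4% and 59.1% in WT stimulated ones. In cKO it made up 68%, 63.8% and 66.3% ex vivo and 55.5%, 55.6% and 53.5% after stimulation. The ranges were separate in both genotypes (exact permutation p = 0.1 each, the smallest possible). With condition labels permuted within each genotype the exact p was 0.005, the smallest that 400 arrangements allow (adjusted 0.0175), and for genotype within condition it was 0.95. The share of Dnmt3a was higher by 3.59 percentage points in WT and 5.32 in cKO after stimulation (exact permutation p = 0.01 within genotype, adjusted 0.028) and that of Dnmt3b by 2.29 and 5.85 (exact permutation p = 0.015, adjusted 0.03). Without WT ex vivo 2 the WT difference for Dnmt3b was 3.58 and without WT ex vivo 1 it was 1.56. For both de novo enzymes the shares overlapped between conditions in WT and were separate in cKO. Shares within a family sum to a fixed total, so a lower Dnmt1 share entails a higher share of the others together. The tests of these shares are therefore not independent. In scaled TPM the changes with stimulation were -0.30 in WT and -0.54 in cKO for Dnmt3a, and -0.10 and 0.01 for Dnmt3b.

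Among the TET transcripts the share of Tet2 was higher and that of Tet3 lower with Ikaros deletion and with stimulation. Tet2 made up 34.3%, 32.2% and 29.5% of the summed TET TPM in WT ex vivo libraries and 37.6%, 40.4% and 38.3% in cKO ex vivo libraries. After stimulation it made up 37.2%, 35.2% and 36.3% in WT and 55.1%, 52.3% and 48.3% in cKO libraries. The cKO libraries were above the WT libraries in both conditions, and the stimulated libraries above the ex vivo ones in both genotypes. The difference of means was 6.77 percentage points for genotype ex vivo, 15.7 for genotype after stimulation, 4.23 for stimulation in WT and 13.1 for stimulation in cKO, each with an exact permutation p of 0.1. With labels permuted within the other factor the exact p was 0.005 for genotype and 0.005 for stimulation (adjusted 0.0175 each), the smallest that 400 arrangements allow. These permutations did not keep the replicate pairs. Whether the genotype difference itself was larger after stimulation was not tested. Leaving out single libraries kept the difference after stimulation between 14.1 and 17.4 percentage points, and subtracting the silent gene level from each library gave a mean of 52.8% in cKO stimulated against 36.3% in WT stimulated libraries.

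Tet3 was the counterpart, with 62.3% ± 1.77 (SD, n = 3) for WT and 57.2% ± 1.89 for cKO ex vivo, and 60.3% ± 1.5 for WT and 44.1% ± 2.62 for cKO after stimulation. The genotypes were separate in both conditions (exact permutation p = 0.005 for genotype within condition, adjusted 0.0175). Ex vivo and stimulated libraries were separate in cKO and overlapped in WT (exact permutation p = 0.015 for stimulation within genotype, adjusted 0.03). The TET shares also sum to a fixed total, so the results for Tet2 and Tet3 are not independent. Tet1 made up 5.67% ± 0.931 in WT ex vivo and 3.48% to 4% on average in the other 3 groups. The Tet1 share was separate for genotype ex vivo (-1.67 percentage points) and for stimulation in WT (-2.19), with an exact permutation p of 0.1 each. It overlapped for genotype after stimulation (0.518) and for stimulation in cKO (-0.00741). With labels permuted within the other factor the exact permutation p for Tet1 was 0.305 for genotype (adjusted 0.388) and 0.095 for stimulation (adjusted 0.148).

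**Figure D4:**
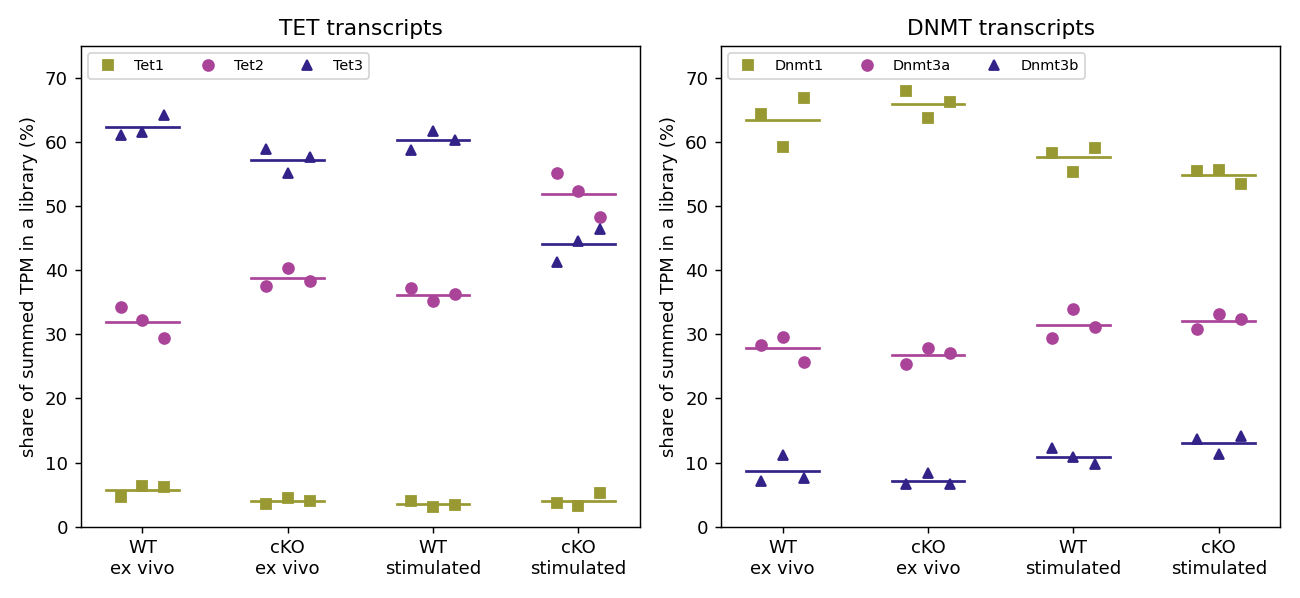
Share of each gene in the summed TPM of the TET transcripts (left) and DNMT transcripts (right) of a library, in percent (vertical axes from 0), by group; points are libraries and lines the group means. Tet2 exceeds Tet3 in the 3 cKO stimulated libraries and in no other, and Dnmt1 has its lowest shares in the stimulated groups.

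As single genes the TET members gave fewer calls. Tet3 measured 39.2, 45.1 and 44.2 scaled TPM in WT stimulated and 28.5, 33.4 and 22.8 in cKO stimulated libraries. The groups were separate, and the change of -0.60 (SE 0.18) had an adjusted p of 0.0697 (limma). It was called with a 5 TPM filter (-0.44, adjusted p = 0.0301), with TPM as deposited (-0.73, 0.0418), after subtracting the silent gene level (-0.58, 0.033) and without cKO ex vivo 2 (0.0395) or cKO stimulated 2 (0.0307). Without cKO stimulated 3 the adjusted p was 0.452 (limma), the highest over 19 alternatives. Tet3 measured 49.3, 37.6 and 41.6 in WT ex vivo and 44.9, 31.6 and 43.1 in cKO ex vivo libraries, which overlapped. In cKO, Tet3 fell by 0.48 with stimulation (SE 0.18, adjusted p = 0.0369, limma), with ranges that overlapped between cKO ex vivo 2 and cKO stimulated 2. This call was lost without WT ex vivo 3 (adjusted p = 0.0567, limma), cKO ex vivo 1 (0.154), cKO ex vivo 3 (0.138), cKO stimulated 1 (0.0752) or cKO stimulated 3 (-0.30, 0.266), and under the 5 TPM filter the change was -0.17 (0.197). It was also lost with TPM as deposited (-0.49, 0.0797), median of ratios scaling (0.0656), no filter (0.0663) and a replicate block (0.0537), over a range of 0.00756 to 0.266 for 19 alternatives. In WT the change with stimulation was 0.01, with 2 SE from -0.36 to 0.37.

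Ex vivo Tet2 measured 27.7, 19.6 and 19.1 scaled TPM for WT and 28.7, 23.1 and 28.6 for cKO. Stimulated, it measured 24.8, 25.7 and 26.6 for WT and 37.9, 39.2 and 23.7 for cKO. The cKO stimulated library 3 lay apart from the others of its group and below the WT stimulated libraries. Fitted changes were 0.28 and 0.34 for genotype and 0.22 and 0.29 for stimulation, each with an SE of 0.19 and none called. With single libraries left out they ran, for genotype, from 0.20 (without WT ex vivo 3) to 0.44 (without WT ex vivo 1) ex vivo and from 0.22 (without cKO stimulated 2) to 0.61 (without cKO stimulated 3) after stimulation. For stimulation they ran from 0.13 (without WT ex vivo 3) to 0.39 (without WT ex vivo 1) in WT and from 0.16 (without cKO stimulated 2) to 0.56 (without cKO stimulated 3) in cKO. For stimulation in cKO, the change on the scaled values minus that under the 5 TPM filter had a median of -0.30 over the genes tested in both. With that filter Tet2 was called higher with stimulation in cKO (0.60, adjusted p = 0.00741, limma). It was also called there without cKO stimulated 3 (0.56, adjusted p = 0.0343, limma; range over 19 alternatives 0.00741 to 0.916), and in WT with TPM as deposited (0.58, adjusted p = 0.0437, limma; range 0.0437 to 0.839).

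Tet1 was highest in WT ex vivo Treg. It measured 3.71, 3.84 and 3.95 scaled TPM there, against 2.67, 2.55 and 3.03 for cKO ex vivo. Stimulated, it measured 2.66, 2.26 and 2.45 for WT and 2.52, 2.35 and 2.54 for cKO. The WT ex vivo libraries lay above all 9 others. Ex vivo, the change in cKO was -0.37 (SE 0.14, adjusted p = 0.236, limma), 2 SE reach from -0.65 to -0.09, and the adjusted p ranged from 0.16 to 0.749 over 18 alternatives. In TPM as deposited the same groups measured 3.07 to 3.56 and 2.42 to 3.06, which were also separate, with a change of -0.17. The study, which tested read counts, named Tet1 among the genes that were lower in cKO Treg ex vivo. With stimulation Tet1 fell by 0.49 in WT (SE 0.14, adjusted p = 0.0133, limma), a call lost without WT ex vivo 3 (0.0604) or WT stimulated 2 (0.0675). In cKO the change with stimulation was -0.11 (SE 0.14, adjusted p = 0.507, limma), and the difference between the genotypes of 0.38 (SE 0.20) did not pass (adjusted p = 0.486, limma). Tet1 was not tested under the 5 TPM filter, and its levels of 2.19 to 3.56 TPM are set beside silent receptor genes whose 90th percentile reached 2.33 TPM in a library.

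For genotype ex vivo Uhrf1 had a change of 0.46 (SE 0.17, adjusted p = 0.195, limma), which was 0.29 without WT ex vivo 2 and 0.67 without WT ex vivo 3, and WT ex vivo 3 overlapped with the cKO libraries. With TPM as deposited it was 0.70 (adjusted p = 0.0309, limma; range over 19 alternatives 0.0309 to 0.733). Dnmt1 had 0.18 (SE 0.18, adjusted p = 0.885, limma), from 0.02 without WT ex vivo 2 to 0.31 without cKO ex vivo 2. Between libraries of the same number, which were taken as pairs ex vivo, cKO was the higher in 3 of 3 for Uhrf1, Dnmt1, Dnmt3a and Tet2 and the lower in 3 of 3 for Tet1, and with the replicate block no member was called (adjusted p = 0.2 for Uhrf1 to 1 for Dnmt3a and Tet3, limma). Mki67 of the S phase list had 0.82 (SE 0.23, adjusted p = 0.0668, limma) in the same comparison, and was called with the replicate block (0.0291) and with TPM as deposited (1.06, 0.000221). After stimulation Dnmt1 was 24.1 ± 1.74 in WT and 19.7 ± 2.25 in cKO (SD, n = 3), separate in range, with a change of -0.28 (SE 0.18, adjusted p = 0.331, limma) that was -0.14 without cKO stimulated 3.

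Other genes of the methylation pathway were read from 5 further lists. With the 22 S phase genes they held 84 genes, all of them tested. Of the 84, none was called for genotype ex vivo, after stimulation or in the interaction by limma without a block on the scaled values, with 13, 16 and 14 at an unadjusted p under 0.05 beside 10.6%, 22.7% and 11% of all genes. With stimulation 3 were called higher and 20 lower in WT, where 5.53% and 15.7% of all genes were, and 4 higher and 43 lower in cKO, beside 16.2% and 29%. These shares of all genes are the background for the counts of each list. Under the 5 TPM filter, list genes were called higher for genotype, Ikzf4 ex vivo (0.60, adjusted p = 0.0119, limma) and Uhrf2 (0.36, 0.033), Foxp3 (0.96, 0.00847) and Il2ra (0.80, 0.00972) after stimulation. With the replicate block the interaction was called for Mki67 (-1.35, adjusted p = 0.0337, limma). With single libraries left out, list genes were also called in these comparisons. Without cKO stimulated 2, Zbtb33, Ogt, Mcm4 and Mcm6 were called lower for genotype after stimulation (adjusted p = 0.033 to 0.0478, limma). The same fit called Cdk1 higher ex vivo (0.0448). Without WT stimulated 2, the interaction was called for Mki67 (-1.63, 0.0234) and Ccna2 (-1.32, 0.0262). With TPM as deposited, Mki67, Top2a, Ccna2, Mcm5, Mcm6, Gadd45b and Ogt were called for the interaction, at -1.06 (Mcm5) to -1.72 (Mki67), and Mki67, Top2a, Ccna2, Cdk1 and Ikzf4 for genotype ex vivo, at 0.76 (Ccna2) to 1.06 (Mki67). Of 12 partners of the methyltransferases, 3 fell in WT and 5 in cKO, 1 rose in cKO, and the median change was -0.28 and -0.26. Under the 5 TPM filter, 1 of 10 tested was called higher and 3 lower in WT, and 2 higher and 4 lower in cKO. With TPM as deposited Zbtb24 (0.59, adjusted p = 0.0299, limma) and Dnmt3l (0.56, 0.0409) were called higher in WT. Pcna, the sliding clamp that recruits Dnmt1 to replication forks, fell from 102 ± 28.1 to 20.5 ± 1.27 scaled TPM in WT (SD, n = 3; change -2.23, adjusted p = 1.71e-07, limma) and from 79 ± 22.7 to 15.6 ± 4.21 in cKO (-2.25, adjusted p = 9.5e-08, limma). Cdca7l fell in both genotypes, and so did Chaf1b, a subunit of the chromatin assembly factor that works at the fork, although not in WT with TPM as deposited (-0.39, adjusted p = 0.145, limma). Usp7, the deubiquitinase that binds Dnmt1 and Uhrf1, fell by 0.81 in cKO (adjusted p = 0.00192, limma), as did Hells, a remodeller needed for methylation, by 0.60 (adjusted p = 0.00191, limma; -0.33 and 0.1 under the 5 TPM filter). The gene that rose in cKO was Dnmt3l, an inactive cofactor of the de novo enzymes, from 2.47 ± 1.01 to 4.05 ± 0.523 scaled TPM (adjusted p = 0.0177, limma). This call was lost without cKO ex vivo 1 (0.151) or cKO stimulated 3 (0.0545) and without a filter (0.40, 0.23), and the level lies near that of silent receptor genes.

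Of 21 genes for repair and demethylation, 2 rose and 5 fell in WT, and 3 rose and 9 fell in cKO. Tdg, the glycosylase that excises the oxidised bases made by TET enzymes, fell by 0.65 in WT (adjusted p = 0.00545, limma; 0.0544 without WT stimulated 1, -0.31 and 0.252 with TPM as deposited, 0.0907 without a filter) and by 1.06 in cKO. Gadd45a, linked to active demethylation, fell from 36.9 ± 6.88 to 12.5 ± 0.582 scaled TPM in WT and from 25.2 ± 7.89 to 13 ± 3.59 in cKO (SD, n = 3). Smug1, another base excision glycosylase, rose by 0.85 in WT (adjusted p = 0.000208, limma) and by 0.54 in cKO. Ogt, a TET-binding glycosyltransferase, rose by 0.71 in WT (adjusted p = 0.0133, limma), a call lost without WT ex vivo 3 (0.0675), WT stimulated 2 (0.0573) or WT stimulated 3 (0.0525). Without a filter Ogt had an adjusted p of 0.221 and Smug1 in cKO 0.145 (limma). With TPM as deposited the split in WT was 5 higher and 2 lower. Of 15 genes of the methyl donor cycle, none rose, 4 fell in WT and 7 in cKO. Mat2a, which makes S-adenosylmethionine, fell from 83.5 ± 9.01 to 42.9 ± 2.81 in WT (adjusted p = 0.000921, limma) and from 62.5 ± 10.8 to 35 ± 7.88 in cKO (adjusted p = 0.00157, limma). With TPM as deposited none of the 15 fell in WT and 4 in cKO. With libraries left out the counts were 2 to 5 in WT, 2 of them without WT ex vivo 1, WT stimulated 2 or WT stimulated 3, and 4 to 8 in cKO, 4 of them without cKO ex vivo 1, cKO ex vivo 3 or cKO stimulated 3.

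Of 8 readers of methylated CpG, Zbtb38 fell in both genotypes and Zbtb33 in cKO, and no other reader passed on the scaled values, counts of 1 of 8 and 2 of 8 beside 15.7% and 29% of all genes called lower. The WT call of Zbtb38 held in 7 of 12 leave-one-out fits and was lost without WT ex vivo 1 (adjusted p = 0.166, limma), WT ex vivo 3 (0.0989), WT stimulated 1 (0.0592), WT stimulated 2 (0.124) or WT stimulated 3 (0.0524). It was also lost with TPM as deposited (-0.19, 0.517), median of ratios scaling (0.0506) and no filter (0.191). Under the 5 TPM filter Zbtb4 was called higher, by 0.59 in WT (adjusted p = 0.000618, limma) and by 0.62 in cKO (0.000386). The cKO call of Zbtb33 was lost without cKO ex vivo 1 (0.0529) or cKO stimulated 3 (0.0732). Of 6 Treg genes known for a demethylated signature region, Ctla4, the inhibitory receptor, fell from 826 ± 119 to 200 ± 8.8 scaled TPM in WT and from 724 ± 107 to 224 ± 54.3 in cKO (SD, n = 3). Foxp3 fell in WT from 185 ± 29.7 to 103 ± 18.9 (adjusted p = 0.0128, limma), and in cKO it was 167 ± 20.7 and 185 ± 56.2. The WT call of Foxp3 was lost without WT ex vivo 1 (0.0778) or WT stimulated 2 (0.0852) and with TPM as deposited (0.164) or no filter (0.127). Ikzf4 rose by 0.69 in WT (adjusted p = 0.0116, limma; 0.0506 without WT stimulated 3, 0.205 without a filter) and Ikzf2 fell by 0.82 in cKO (adjusted p = 0.00526, limma; 0.0685 without cKO stimulated 3). Tnfrsf18 passed only in alternatives, among them the 5 TPM filter, where it rose by 0.79 in WT (adjusted p = 0.00199, limma) and 0.58 in cKO (0.00897). Under that filter 2 of the 6 were called higher and 2 lower in WT, and 3 higher and 2 lower in cKO. For genotype none of the 6 was called by limma on the scaled values, with 2 at an unadjusted p under 0.05 in each condition. Foxp3 had a change of 0.80 for genotype after stimulation (adjusted p = 0.0592, limma), which was called with the silent gene level subtracted (0.0189) and without WT ex vivo 2 (0.0435), cKO ex vivo 2 (0.0453) or cKO stimulated 3 (0.00943).

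Across the 12 libraries, Dnmt1 followed Dnmt3a (Pearson r = 0.96) and Uhrf1 (r = 0.95), and Dnmt3a followed Uhrf1 with r = 0.85. Tet3 went with Dnmt3a (r = 0.75), Tet1 and Tet2 had r = -0.55, and Dnmt3b had r of -0.25 to 0.40 with the other 6. These values describe log2(scaled TPM + 1) over libraries that share groups and scaling factors, so no p is given. By the same measure the 3 genes nearest to Dnmt1 were Smc1a (r = 0.99), a cohesin subunit, Fam53b (0.988) and Prdm4 (0.988). Nearest to Dnmt3a were Dhx38 (0.997), Luc7l2 (0.996) and Zfp142 (0.996), and to Uhrf1 Itgae (0.977), the integrin alpha E chain, Slc29a1 (0.975) and Zfp367 (0.971). Tet1 was nearest to Rcn1 (0.968), Actg2 (0.959) and Rasl11b (0.933), Tet2 to Hipk2 (0.925), Jarid2 (0.913) and Ppard (0.912), and Tet3 to Thoc2 (0.987), Arfgef1 (0.978) and Il17ra (0.976). Dnmt3b had no neighbour above 0.849, with 5430419D17Rik, 2410133F24Rik and Wwox nearest.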

How the data were processed

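RNA from 12 Treg preparations was depleted of rRNA and made into stranded libraries, sequenced as paired 51 bp reads. Per the submitters' processing notes and the study's methods, reads were mapped to mm9 with STAR 2.6.0c and counted per gene by HTSeq 0.6.1 with Ensembl 67 annotation. The authors deposited a signal value for every gene and library, TPM, which sums to 1000000 in each, and a deposited log2 column that holds log2 of TPM plus what 1 read is worth. Dividing TPM by that worth gave whole reads for 99.9988% of values (tolerance 0.05). The authors' second table holds their own log2 fold changes, F statistics, p-values and FDR for pairs of groups, and was not used.

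TPM was divided by factors of a trimmed mean of M-values (30% of M and 5% of A trimmed, unweighted) and fitted as log2(scaled TPM + 1) with limma 3.58.1 in R 4.3.3 (trend on), all 12 libraries and 4 groups in 1 model. The 18111 genes tested are the 0.5 of all genes with the highest group mean in CPM of the recovered reads (3.74 or more). The fit was tested on simulated data. Alternatives were no filter, a 5 TPM filter, TPM as deposited, median of ratios, pseudocount 0.25, silent gene level subtracted, replicate block and each library left out. Shares within a library were compared by exact permutation; the stratified permutation and the list counts under alternatives were added after seeing the data. The members and lists were chosen with earlier results of these data known. Named are the members, list genes called or with the largest changes, the 3 nearest genes by Pearson r, Ikzf1 and the activation controls.

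Deviations of libraries with the same replicate number correlated at 0.42, 0.61 and 0.25 between WT and cKO ex vivo, so the numbers were taken as pairs there; the pairing comes from these correlations and not from the labels. Elsewhere at least 1 pair was at or below 0.02. The labels name individual mice as the source and do not say which libraries share one, so p-values measure the spread between these libraries.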

Additional observations from a re-analysis of the deposited data

How the results depend on the processing

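Ex vivo, 704 genes were called for genotype with a 5 TPM filter, 734 with TPM as deposited and 44 without a filter, and 242 to 492 when libraries were left out. After stimulation the genotype count was 52 without a filter and 1031 with the silent gene level subtracted, and 278 to 1236 with libraries left out. For stimulation it was 1677 in WT without a filter, and 2553 to 4750 in WT and 5006 to 10118 in cKO with libraries left out. The interaction count was 147 with a 5 TPM filter, 687 with TPM as deposited, 0 without a filter and 133 with the silent level subtracted, and 28 to 180 with libraries left out. Of the members, 1 was called for genotype ex vivo with TPM as deposited, 1 for genotype after stimulation with a 5 TPM filter, TPM as deposited or the silent level subtracted (0 to 1 with libraries left out), 1 for stimulation in WT with TPM as deposited or no filter (0 to 3 with libraries left out, 0 without WT ex vivo 3 or WT stimulated 2), and 1 for the interaction with TPM as deposited. With libraries left out, 0 members were called for genotype ex vivo and the interaction, and 3 to 4 for stimulation in cKO. Each of these counts is at an adjusted p under 0.05 (limma); the cause of the shifts was not tested.

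Directions turned only for changes that were not called, between -0.30 and 0.12 as reported. With TPM as deposited these were Tet3 (0.14) and Dnmt3b (0.12) for genotype ex vivo, Tet1 (-0.09) and Dnmt3b (-0.08) for genotype after stimulation, Dnmt3a (0.05) and Dnmt3b (0.21) for stimulation in WT, and Tet2 (-0.30) and Dnmt3b (-0.20) for the interaction. Without a filter they were Tet1 (-0.10) and Dnmt3b (-0.10) for genotype after stimulation, Tet3 (-0.08) in WT and Dnmt3b (-0.18) in cKO for stimulation, and Tet2 (-0.08) and Dnmt3b (-0.01) for the interaction. Tet1 was -0.04 for genotype after stimulation with the silent level subtracted, and Dnmt3b 0.04 for stimulation in WT with a 5 TPM filter. With libraries left out, Tet3 ran from -0.20 to 0.05 and Dnmt3a from -0.00 to 0.16 for genotype ex vivo, Tet1 from -0.03 to 0.05 and Dnmt3b from -0.04 to 0.10 for genotype after stimulation, Tet3 from -0.08 to 0.11 for stimulation in WT, Dnmt3b from -0.05 to 0.07 in cKO, and Tet2 from -0.10 to 0.33 for the interaction. Of 240 member changes under other settings 10 lost and 7 gained a call, and of 420 with libraries left out 13 lost and 3 gained one. The differences in shares moved by less than the larger SD of the groups compared, with libraries left out and with the silent level subtracted. Of those whose ranges overlapped, some turned in sign with libraries left out, namely the Tet1 share for genotype after stimulation (-0.0793 to 0.945) and for stimulation in cKO (-0.605 to 0.419), the Dnmt3a share for genotype after stimulation (-0.371 to 1.79) and the ratio of Uhrf1 to Dnmt1 for stimulation in WT (-0.0321 to 0.0267).

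With the replicate block, 415, 542, 3525, 7824 and 80 genes were called in the 5 comparisons, and of the members only the decrease of Tet3 in stimulated cKO Treg lost its call (adjusted p = 0.0537, limma). Depth limits Dnmt3b and Uhrf1 most, with as few as 153 and 190 reads in a library, and the levels of Tet1 and Dnmt3b stand closest to those of silent genes.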
